A study of Mus musculus with 8 samples.

Results

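The genes described here are a set of 9: the forkhead transcription factors Foxo1 and Foxo3, and 7 genes that other work has placed around FoxO activity, growth factor withdrawal or growth arrest (Irs2, Pik3ip1, Ccng2, Pnrc1, Bcl6, Klhl24 and Calcoco1). They were picked by name among the 24460 genes of the count files, after their normalized counts across 0, 2 and 10 µM RHPS4 had been seen, because some of them were lower at 2 µM only. Their values in these comparisons are therefore a description and carry no test. All 9 were among the 14296 genes that passed the filter on low counts, with between 36 and 2218 reads per library.

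The cells were wild type mouse embryonic fibroblasts (MEFs), grown as a subconfluent culture in glucose-rich medium with serum. RHPS4 is a small molecule ligand of G-quadruplexes (G4), the folded structures that guanine-rich DNA or RNA can adopt. RNA-Seq was done on 3 libraries of MEFs without RHPS4 (0 µM), 3 libraries at 2 µM and 2 libraries at 10 µM, all from total RNA depleted of nuclear ribosomal RNA. The labels list 16 or 24 h as exposure times without tying one to each library, and nothing says that the libraries of a dose came from separate cultures, so p-values measure only the spread between these libraries.

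FoxO factors are held in the cytoplasm when insulin or growth factors activate PI3K and AKT, because AKT phosphorylates them. When that signal drops they enter the nucleus and switch on genes for cell cycle exit, autophagy, stress resistance and cell death, and they also induce components of the insulin pathway itself. In fibroblasts this program is best known from serum withdrawal and contact inhibition. Much of FoxO regulation acts on the protein, which mRNA counts do not measure.

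Total counts were between 10455965 and 26688121 per library, and the first 0 µM library was the smallest and stood farthest from the others of its dose. Over the libraries, mtDNA-encoded genes took 13.2% to 14.4% of counts at 0 µM, 7.40% to 8.26% at 2 µM and 5.33% to 6.32% at 10 µM. Levels below are CPM, counts set relative to the library total after scaling by the trimmed mean of M-values (TMM), and 3 counts correspond to 0.119 to 0.311 CPM. The 13 fibroblast markers summed to 14474 to 14906 CPM at 0 µM, 13166 to 13436 CPM at 2 µM and 12820 to 13225 CPM at 10 µM. Epithelial, endothelial, haematopoietic and skeletal muscle lists each summed to at most 11.3 CPM in any library. Under 1 CPM throughout were 5 of 6 epithelial, 1 of 5 endothelial, 0 of 5 haematopoietic and 4 of 5 skeletal muscle markers. The neural list (Sox2, Nes, Tubb3, Map2 and Sox10) summed to 88.7 to 124 CPM, and of it only Sox10 was under 1 CPM throughout. What part these shifts play in the results was not tested. In bulk RNA, fewer cells that express a gene and less RNA per cell cannot be told apart.

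The promoters are shown first, because FoxO factors bind DNA through short known cores and RHPS4 binds G4. RefSeq promoters (GRCm38.p6, 250 bases before to 50 bases after the start) were at hand for 8 of the 9 genes, Klhl24 being the exception, and Bcl6 had 2, which makes 9 promoters. The FoxO core GTAAACA, searched on both strands, was in 0 of these 9 promoters and in 3.65% of all 32851 promoters of the same length. The insulin response core CAAAACAA was in 2 of the 9, those of Ccng2 and Irs2, and in 2.51% of all promoters. It lay 16 to 9 bases before the RefSeq start in Ccng2 (chr5:93267546-93267572, plus strand). In Irs2 it lay 38 to 31 bases before the RefSeq start (chr8:11008949-11008978, minus strand), where it is read on the opposite strand. The GENCODE gene bounds given below place these starts differently, at 93267257 for Ccng2 and 11008458 for Irs2. By those bounds the Ccng2 core lies inside the gene and the Irs2 core farther before it. Both are written 5′ to 3′ on the gene's strand, with the core in capitals.
Ccng2: cgtcgcagactCAAAACAAaaacaagg
Irs2: agagtcacgtgTTGTTTTGctcttagttca
A G4 sequence pattern, 4 runs of at least 3 G separated by 1 to 7 bases on either strand, was in 4 of the 9 promoters (Foxo3, Irs2, Calcoco1 and Pnrc1) and in 18.6% of all promoters. By the GENCODE bounds, the windows of Pnrc1 (chr4:33248738-33249037, minus strand) and Pik3ip1 (chr11:3330481-3330780, plus strand) lie wholly inside their genes. Those bounds put the starts at 33290163 for Pnrc1 and 3330401 for Pik3ip1. The median GC content was 61.3% in the 9 promoters and 52.7% in all promoters. Foxo3 held 2 separate stretches (chr10:42276841-42276918 and chr10:42276760-42276829, minus strand), Calcoco1 held 1 (chr15:102722204-102722264, minus strand), and of the 2 stretches of Irs2 the one with its G runs on the gene's own strand is shown (chr8:11009099-11009160, minus strand). The capitals mark the stretch that matched, and where it reads as runs of C, the runs of G are on the opposite strand. None of these stretches overlapped a CAAAACAA core.
Foxo3, farther: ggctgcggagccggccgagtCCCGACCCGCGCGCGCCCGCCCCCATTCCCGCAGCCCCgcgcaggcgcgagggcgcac
Foxo3, nearer: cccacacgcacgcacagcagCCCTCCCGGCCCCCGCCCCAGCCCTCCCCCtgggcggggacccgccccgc
Calcoco1: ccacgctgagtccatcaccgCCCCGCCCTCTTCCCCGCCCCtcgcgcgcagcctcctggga
Irs2, own strand: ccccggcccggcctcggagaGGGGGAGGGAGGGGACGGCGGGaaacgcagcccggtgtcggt
These are matches of letters in a 300-base window, and no binding or folding was measured here.

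At 2 µM against 0 µM all 9 genes had a log2 fold change below 0, which is the direction they were chosen for. Their median was -0.74, and the median over all tested genes was -0.01. The DEG rule was an adjusted p under 0.01 in edgeR's quasi-likelihood test together with a change of more than 1.5-fold. It called 5 of the 9 lower (Ccng2, Klhl24, Pik3ip1, Calcoco1 and Pnrc1) and none higher, where 0.378% of all tested genes were called lower and 0.119% higher. For 6 of the 9, the same 5 and Foxo3, every 2 µM library lay below every 0 µM library, as it did for 12.9% of all tested genes. These counts come from the comparison on which the genes were chosen, so nothing is read from them. The summed CPM of the 9 genes was 301 ± 16.0 over the 3 untreated libraries, 184 ± 2.69 over the 3 at 2 µM and 273 ± 7.80 over the 2 at 10 µM (mean ± SD).

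**Figure D1:**
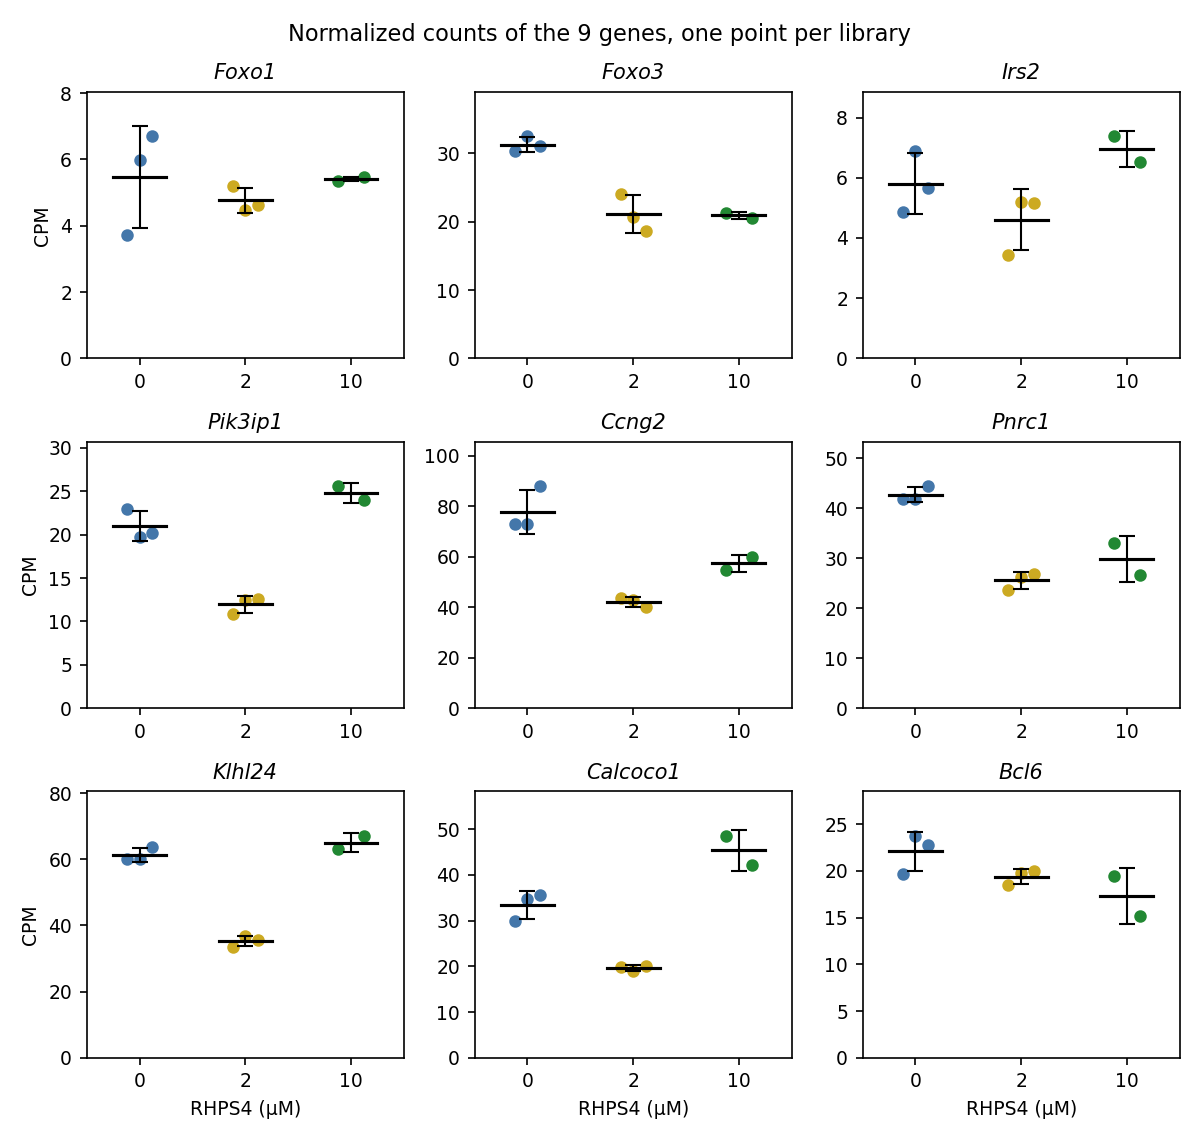
Normalized counts (CPM, linear axes from 0) of the 9 genes at 0, 2 and 10 µM RHPS4; each point is 1 library, horizontal bars are group means and error bars are SD (n = 3, 3 and 2). Pik3ip1, Klhl24 and Calcoco1 dip at 2 µM and return to or above the untreated level at 10 µM, Foxo3 stays low at both doses, and the points of Foxo1 overlap at both doses.

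Foxo1, on chromosome 3 (52268336 to 52353221, plus strand, GRCm38), is the FoxO factor best known for control of glucose metabolism. Its levels were 3.73, 5.98 and 6.70 CPM in the 0 µM libraries, 5.19, 4.48 and 4.63 CPM at 2 µM, and 5.36 and 5.46 CPM at 10 µM. The untreated libraries spanned all the treated ones, and the lowest of them, the first, rested on 36 reads. In the fit, the log2 fold change was -0.27 (SE 0.185) at 2 µM and -0.08 (SE 0.200) at 10 µM, with either sign at 10 µM when 1 library was left out. Without the first 0 µM library these values were -0.41 and -0.26, without the third they were -0.10 and 0.09, and without the second 10 µM library the value at 10 µM was -0.13.

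Foxo3, on chromosome 10 (42181841 to 42276755, minus strand), is a FoxO factor tied to quiescence, autophagy and cell death. Its levels were 30.35, 32.50 and 31.06 CPM at 0 µM, 24.02, 20.75 and 18.63 CPM at 2 µM, and 21.33 and 20.61 CPM at 10 µM. All 5 treated libraries lay below all 3 untreated ones, and the doses overlapped each other. The log2 fold change was -0.58 at both doses (SE 0.0981 at 2 µM and 0.110 at 10 µM), so the level was 0.671 of untreated at 2 µM and 0.669 at 10 µM, just short of the 1.5-fold limit, and at 2 µM it also missed the limit on the adjusted p. Without the first 0 µM library the log2 fold change was -0.59 at 2 µM and -0.62 at 10 µM, and the rule then called Foxo3 at both. Foxo3 mRNA gave 6.07 ± 1.84 times the CPM of Foxo1 over the 3 untreated libraries, 4.43 ± 0.350 times over the 3 at 2 µM and 3.88 ± 0.142 times over the 2 at 10 µM (mean ± SD). The untreated libraries gave 8.14, 5.43 and 4.64 times, the first with 36 reads of Foxo1. At 2 µM the values were 4.63, 4.64 and 4.03 times, so the third untreated library lay among them.

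Irs2, on chromosome 8 (10984681 to 11008458, minus strand), encodes an adaptor that carries the signal from the insulin and IGF1 receptors to PI3K. Its levels were 4.87, 6.88 and 5.67 CPM at 0 µM, 3.43, 5.21 and 5.16 CPM at 2 µM, and 7.37 and 6.53 CPM at 10 µM. The 2 µM libraries overlapped the untreated ones, as did those at 10 µM, while both 10 µM libraries lay above all at 2 µM. The fit gave a log2 fold change of -0.34 (SE 0.180) at 2 µM, 0.24 (SE 0.187) at 10 µM and 0.58 (SE 0.198) between the doses. At 2 µM it was -0.19 without the first 2 µM library and -0.20 without the second 0 µM library, and at 10 µM it was 0.11 without the first 10 µM library, 0.14 without the first 0 µM library and 0.36 without the second 0 µM library. An antisense transcript, 9530052E02Rik, overlaps Irs2 and was counted at 2 to 10 reads, where Irs2 had 39 to 143.

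Pik3ip1, on chromosome 11 (3330401 to 3342971, plus strand), encodes a membrane protein that inhibits PI3K. Its levels were 23.00, 19.79 and 20.17 CPM at 0 µM, 10.82, 12.45 and 12.64 CPM at 2 µM, and 25.59 and 23.98 CPM at 10 µM. The 3 groups did not overlap, with 2 µM lowest and 10 µM highest. The log2 fold change was -0.79 (SE 0.101) at 2 µM, 0.25 (SE 0.104) at 10 µM and 1.05 (SE 0.109) between the doses.

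Ccng2, on chromosome 5 (93267257 to 93276231, plus strand), encodes an atypical cyclin whose expression goes with cell cycle exit, and it is a classical FoxO target. Its levels were 72.73, 72.71 and 87.88 CPM at 0 µM, 43.46, 42.88 and 39.87 CPM at 2 µM, and 54.78 and 59.74 CPM at 10 µM. The groups did not overlap, and here 10 µM lay between 2 µM and untreated. Of the 9 genes it had the lowest log2 fold change at 2 µM, -0.89 (SE 0.0905), with -0.45 (SE 0.100) at 10 µM and 0.45 (SE 0.101) between the doses.

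Pnrc1, on chromosome 4 (33245423 to 33290163, minus strand), encodes a coactivator of nuclear receptors. Its levels were 41.85, 41.85 and 44.42 CPM at 0 µM, 23.67, 26.28 and 26.82 CPM at 2 µM, and 33.03 and 26.64 CPM at 10 µM. All treated libraries lay below all untreated ones, and the 10 µM libraries differed by more between themselves than the 2 µM libraries did. These levels give a log2 fold change of -0.74 (SE 0.0953) at 2 µM and -0.52 (SE 0.106) at 10 µM.

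Bcl6, on chromosome 16 (23965052 to 23988852, minus strand), encodes a zinc finger repressor that FoxO factors can induce. Its levels were 19.68, 23.74 and 22.78 CPM at 0 µM, 18.48, 19.77 and 19.93 CPM at 2 µM, and 19.44 and 15.22 CPM at 10 µM. The 2 µM and untreated libraries overlapped, and both 10 µM libraries lay below all untreated ones, the nearest with 19.44 CPM just under 19.68 CPM. The log2 fold change was -0.20 (SE 0.109) at 2 µM, the smallest of the 9, and -0.36 (SE 0.123) at 10 µM, where it was -0.58 without the first 10 µM library and -0.22 without the second.

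Klhl24, also on chromosome 16 (20097542 to 20129221, plus strand), encodes a Kelch-type substrate adaptor of a cullin ubiquitin ligase. Its levels were 60.09, 60.10 and 63.67 CPM at 0 µM, 33.61, 36.78 and 35.60 CPM at 2 µM, and 63.01 and 67.06 CPM at 10 µM. The 2 µM libraries stood apart below, and 10 µM overlapped untreated. The fitted log2 fold change was -0.80 (SE 0.0721) at 2 µM, 0.08 (SE 0.0777) at 10 µM and 0.88 (SE 0.0791) between the doses.

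Calcoco1, on chromosome 15 (102706777 to 102722178, minus strand), encodes a coiled-coil protein described as a transcriptional coactivator and as a receptor for selective autophagy. Its levels were 29.94, 34.72 and 35.50 CPM at 0 µM, 19.88, 18.96 and 20.05 CPM at 2 µM, and 48.51 and 42.15 CPM at 10 µM. The groups did not overlap, and 10 µM was highest. Its log2 fold change was -0.77 (SE 0.0948) at 2 µM, 0.43 (SE 0.0992) at 10 µM and 1.21 (SE 0.103) between the doses, the highest of the 9 in both comparisons of 10 µM.

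**Figure D2:**
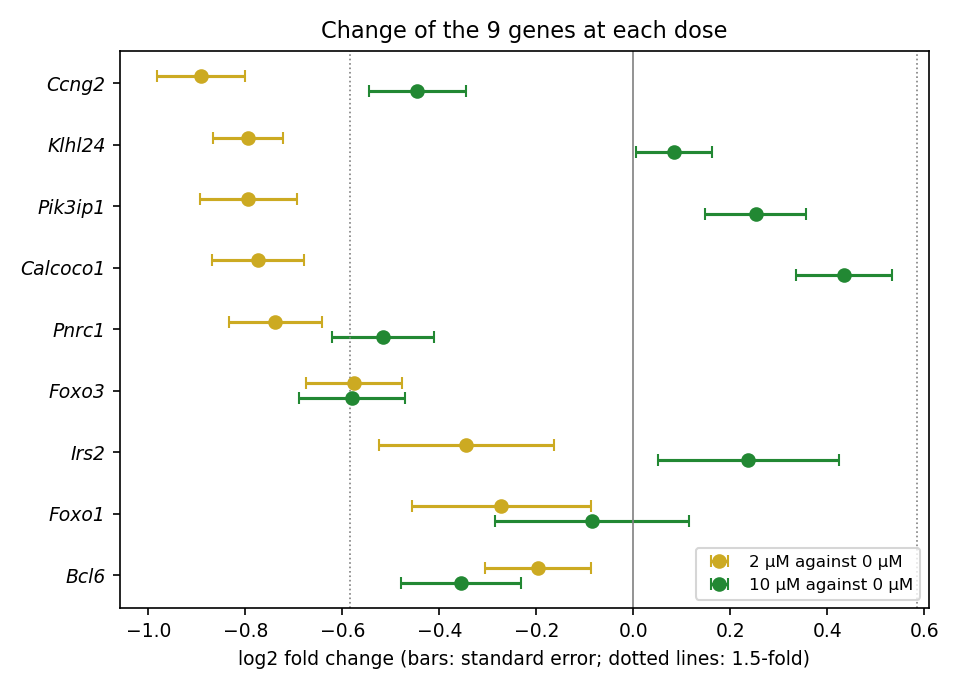
Log2 fold change of each of the 9 genes at 2 µM (yellow) and 10 µM (green) against the same 0 µM libraries; bars are the standard error of the edgeR fit and dotted lines mark 1.5-fold. All 9 yellow points lie left of 0, while the green points run from -0.58 for Foxo3 to 0.43 for Calcoco1.

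The 5 genes called lower at 2 µM remained so when TMM was computed over nuclear genes only, and the smallest change among them was that of Pnrc1, at 0.600 of untreated, with Foxo3 at 0.671 the next outside. With 1 library left out, the log2 fold changes of these 5 genes at 2 µM stayed between -0.93 and -0.69, while the number past the adjusted p limit depended on single libraries. It was 6 without the first 0 µM library, where Foxo3 joined. It was 2, Ccng2 and Klhl24, without the second or the third 0 µM library or the first or the third 2 µM library, and 1, Klhl24, without the second 2 µM library.

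At 10 µM the 9 genes no longer pointed one way. This comparison uses the same untreated libraries as the one at 2 µM. The log2 fold change was below 0 for 5 and above 0 for 4, with a median of -0.08 against 0.02 over all tested genes. No gene of the 9 was called in either direction by edgeR, and DESeq2 called 1, Foxo3, lower, where edgeR called 1.14% of all tested genes lower and 1.95% higher. Both 10 µM libraries lay below all untreated ones for 4 (Foxo3, Ccng2, Pnrc1 and Bcl6), as they did for 20.0% of all tested genes, and above them for 2 (Pik3ip1 and Calcoco1), as they did for 22.9%. With 1 library left out, the rule called Foxo3 lower without the first 0 µM or the third 2 µM library, and Pnrc1 without the first 10 µM library. Scaling to total counts alone moved the median of all tested genes up by 0.21 on the log2 scale at 10 µM, and the rule then called Calcoco1 higher. Relative to each other, Foxo3, Pnrc1, Ccng2 and Bcl6 had the lowest values and Calcoco1, Pik3ip1 and Irs2 the highest.

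Set directly against 2 µM, the 10 µM level was called higher for Calcoco1, Pik3ip1 and Klhl24, at 2.31, 2.06 and 1.84 times the 2 µM level, and lower for none. Of all tested genes 3.92% were called higher and 1.59% lower in this comparison. For 6 of the 9 both 10 µM libraries lay above all 2 µM libraries (Foxo1, Irs2, Pik3ip1, Ccng2, Klhl24 and Calcoco1), as they did for 27.0% of all tested genes. The same 3 genes were called with each library left out in turn. Since the pattern across the 3 doses was used to choose the 9 genes, this too is a description.

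Levels between genes were compared as CPM per kilobase of union exon length from the GENCODE annotation. At 0 µM Pnrc1 was highest with 20.4 ± 0.707, followed by Ccng2 with 14.2 ± 1.60 (SD, n = 3 throughout). Klhl24 with 6.02 ± 0.203, Calcoco1 with 5.83 ± 0.525 and Pik3ip1 with 4.91 ± 0.411 came next, and each of these overlapped its neighbour in the order. Foxo3 followed with 4.13 ± 0.144 and Bcl6 with 3.29 ± 0.317. Irs2 with 0.918 ± 0.160 and Foxo1 with 0.631 ± 0.179 were lowest and overlapped each other. The middle of this order depends on the length used: per kilobase of the longest transcript, Calcoco1 was at 11.2, Pik3ip1 at 8.16, Klhl24 at 7.50, Bcl6 at 5.61 and Foxo3 at 4.57 CPM. By either length, the 5 genes called lower at 2 µM were the 5 with the highest levels at 0 µM. By CPM without a length, Pik3ip1 at 21.0 stood below Foxo3 at 31.3 and Bcl6 at 22.1. The 0 µM libraries are also the reference of those calls, so nothing is read from this order.

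The genes whose log2 CPM followed the mean profile of the 9 most closely over the 8 libraries were Trim2 (Pearson r = 0.994), Tet2 (0.989), Ero1l (0.982), Igsf10 (0.980), Slpi (0.980), Dyrk1b (0.977), Bcl2l11 (0.975), Gramd1b (0.971), Psd3 (0.970) and Notch3 (0.967). The 8 points fall into 3 doses and are not 8 separate conditions. Of these 10 genes, Notch3, a receptor of the Notch pathway, had the lowest log2 fold change at 2 µM, -1.21, followed by Igsf10 with -0.86, Dyrk1b with -0.80 and Ero1l with -0.74. Bcl2l11, which encodes the death-promoting protein BIM and is an established FoxO target, had -0.57. For Foxo1 alone the nearest genes were Gmeb2 (r = 0.954), Slc16a7 (0.930) and Gm20554 (0.918), and for Foxo3 alone Pcdhgc5 (0.963), Chd3 (0.960) and Bhlhe41 (0.960). Within the set, the correlation with the mean of the other 8 genes ran from 0.27 for Bcl6, 0.40 for Foxo1 and 0.56 for Foxo3 to 0.93 for Klhl24.

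The wider pathway was described with 7 lists of known FoxO components, regulators and targets, which hold 121 further genes, of which 115 were tested. For 32 of these 115 every 2 µM library lay below every 0 µM library, as it did for 12.9% of all tested genes. For 12 every 2 µM library lay above, as it did for 12.7%. The log2 fold change at 2 µM was below 0 for 79 and above 0 for 36, with a median of -0.11. At 2 µM 5 of the 115 were called lower by the DEG rule. None was called higher by edgeR's quasi-likelihood test or by DESeq2, and 3 higher and 29 lower genes had an unadjusted p under 0.05, as did 10.1% (higher) and 11.2% (lower) of all tested genes. At 10 µM 2 were called lower and 5 higher, while the log2 fold change was below 0 for 65 and above 0 for 50, with a median of -0.05. Directly between the doses 13 were called higher at 10 µM and 2 were called lower, with a median of 0.06. The shares of all tested genes to read these against are those given above for each comparison, and the lists were written with earlier results of these data known.

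**Figure D3:**
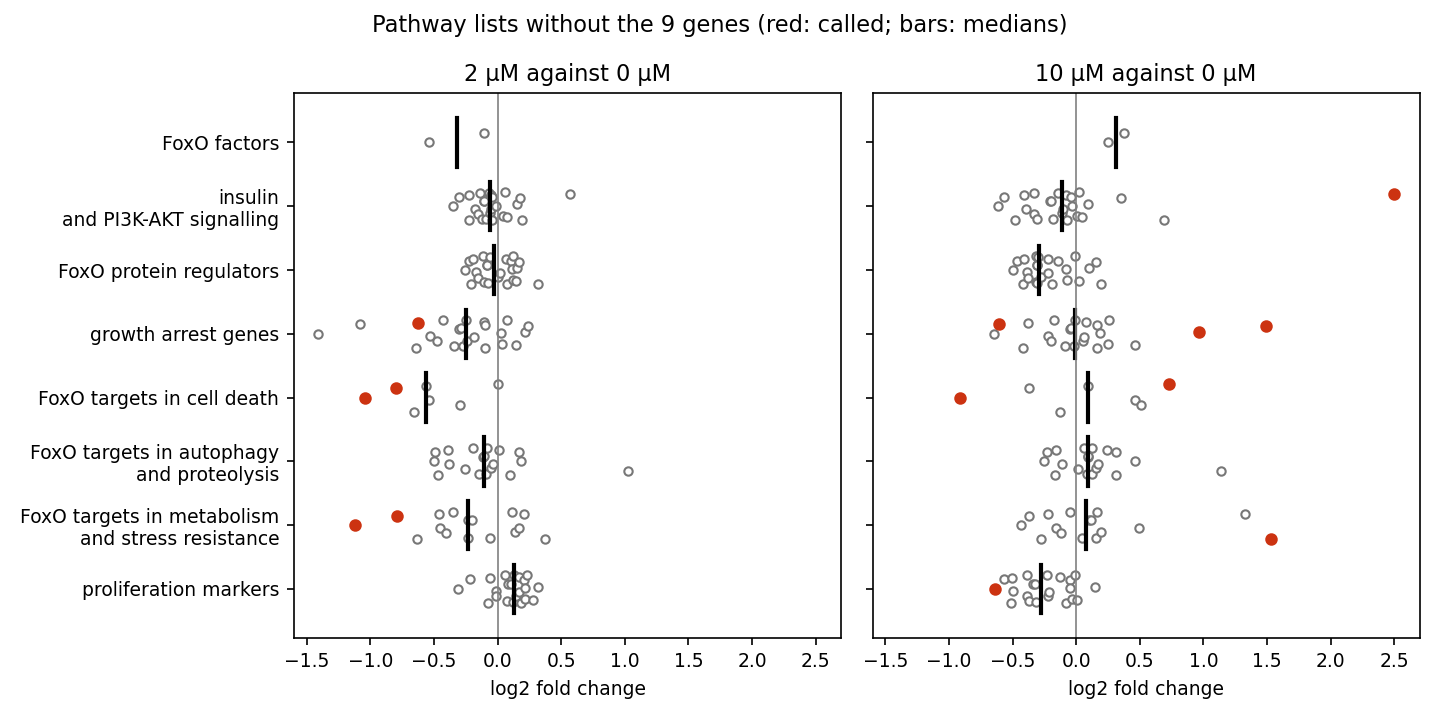
Log2 fold change of the tested genes of each pathway list, without the 9 genes, at 2 µM (left) and 10 µM (right) against 0 µM; each point is 1 gene, red points were called and black bars are medians. At 2 µM the called genes, all lower, stand in the growth arrest, cell death and metabolism lists, and the median of the proliferation markers is above 0; at 10 µM called genes appear on both sides.

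Among the 2 other FoxO factors and the 25 tested insulin and PI3K-AKT components, none was called at 2 µM by edgeR or DESeq2. An unadjusted p under 0.05 was seen for 3, of which 2 were lower and 1 higher, as were 11.2% and 10.1% of all tested genes. Foxo4 stood at 15.3 ± 1.42 CPM in untreated MEFs, 14.1 ± 1.81 CPM with 2 µM and 19.9 ± 3.47 CPM with 10 µM, and Foxo6 at 1.67 ± 0.398, 1.15 ± 0.0870 and 2.01 ± 0.0942 CPM (mean ± SD, n = 3, 3 and 2). The insulin receptor Insr was at 78.7, 87.3 and 90.7 CPM at 0 µM and at 65.8, 67.2 and 69.2 CPM at 2 µM, which is -0.35 on the log2 scale (adjusted p = 0.027 in edgeR's quasi-likelihood test), and misses both limits of the DEG rule. Igf1r, Pik3ca, Pik3r1, Pdpk1, Akt1, Akt2 and Sgk1 had log2 fold changes between -0.23 and 0.16 at 2 µM and between -0.41 and 0.36 at 10 µM, and none was called. Irs1, the other main adaptor of the insulin receptor, was at 81.4, 87.8 and 84.3 CPM at 0 µM. It was at 93.1, 98.0 and 97.9 CPM at 2 µM and at 56.4 and 57.7 CPM at 10 µM. Against 0 µM the log2 fold change was 0.19 at 2 µM and -0.57 at 10 µM (adjusted p = 0.000665 in edgeR's test), the latter under 1.5-fold, so edgeR called neither. DESeq2 called 1 of the 25 components lower at 10 µM, where edgeR called none of them lower and 1.14% of all tested genes. Irs1 was lower at 10 µM than at 2 µM by 0.76 on the log2 scale (adjusted p = 7.02e-05 in edgeR's test). Its paralog Irs2 had the opposite sign in that comparison, as given above. Trib3, which encodes a pseudokinase that binds AKT and is induced by amino acid and endoplasmic reticulum stress, had the highest log2 fold change at 10 µM among these components. It was at 11.1, 7.02 and 10.7 CPM at 0 µM, at 7.48, 8.71 and 11.0 CPM at 2 µM and at 42.8 and 64.1 CPM at 10 µM, which is 2.495 higher on the log2 scale than at 0 µM (SE 0.210, adjusted p = 2.82e-05).

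Among the 24 regulators of the FoxO proteins, no gene was called against 0 µM at either dose by edgeR or DESeq2. An unadjusted p under 0.05 was seen for 1 at 2 µM, which was higher, as were 10.1% of all tested genes. At 10 µM it was seen for 9, which were lower, as were 14.6% of all tested genes. The median log2 fold change was -0.03 at 2 µM and -0.29 at 10 µM. Skp2, the ubiquitin ligase subunit that targets Foxo1 and the cell cycle inhibitor Cdkn1b, was lower at 10 µM than at 2 µM by 0.78 on the log2 scale (adjusted p = 0.000224).

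Among the growth arrest genes, 23 were tested. An unadjusted p under 0.05 in edgeR's test was seen at 2 µM for 10, all lower, as were 11.2% of all tested genes. DESeq2 called 2 lower at 2 µM. The DEG rule in edgeR called 1 lower, as it did 0.378% of all tested genes. This was Mxi1, an antagonist of Myc, with 43.3, 39.1 and 40.8 CPM at 0 µM, 26.8, 26.8 and 26.0 CPM at 2 µM and 37.5 and 44.2 CPM at 10 µM (log2 fold change -0.63 at 2 µM, adjusted p = 0.00344). The related Mxd4 had -0.48 (adjusted p = 0.0122), and the repressor Hbp1 had -0.53 (adjusted p = 0.0051), which is under 1.5-fold. All 3 were called higher at 10 µM than at 2 µM, Mxi1 not by DESeq2, where it was under 1.5-fold. Rbl2, a pocket protein of quiescent cells, had -0.35 at 2 µM (adjusted p = 0.0527), and Cdkn1b, the classical FoxO target among the cell cycle inhibitors, had -0.10 (adjusted p = 0.567). Cdkn1a, another cell cycle inhibitor, had low levels of 2.49, 4.15 and 5.27 CPM at 0 µM and 0.792, 1.30 and 2.37 CPM at 2 µM, on 9 to 133 reads. Its log2 fold change of -1.41 (SE 0.331) missed the threshold in edgeR's test (adjusted p = 0.0398). Klf2, a factor of quiescent cells, likewise had -1.08 (SE 0.253, adjusted p = 0.0394). At 10 µM Gadd45a, a stress-induced growth arrest gene, rose from 6.63, 7.96 and 6.66 CPM to 24.4 and 15.6 CPM (log2 fold change 1.49, adjusted p = 0.000383), and the antiproliferative gene Btg2 rose from 8.39, 8.61 and 7.85 CPM to 14.7 and 17.7 CPM (0.97, adjusted p = 0.000383). Tob2, of the same family as Btg2, fell at 10 µM by 0.60 on the log2 scale (adjusted p = 0.003).

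Among the FoxO targets in cell death, 7 were tested. An unadjusted p under 0.05 in edgeR's test was seen at 2 µM for 4, all lower, as were 11.2% of all tested genes. The DEG rule called 2 lower, as it did 0.378% of all tested genes, and DESeq2 also called 2. Trp53inp1, which encodes a stress protein that takes part in autophagy and p53 signalling, was at 16.2, 12.7 and 15.7 CPM at 0 µM, 6.86, 6.18 and 8.25 CPM at 2 µM and 23.8 and 25.2 CPM at 10 µM. It was thus called lower at 2 µM (log2 fold change -1.04, adjusted p = 0.00247), higher at 10 µM (0.73, adjusted p = 0.00442) and higher at 10 µM than at 2 µM (1.77, adjusted p = 1.33e-05), with no overlap between the groups. Bnip3, a mitophagy receptor that hypoxia induces, fell at both doses, from 117, 97.9 and 118 CPM to 62.1, 66.3 and 62.4 CPM at 2 µM and 53.9 and 64.0 CPM at 10 µM (log2 fold change -0.80, adjusted p = 0.00163, and -0.91, adjusted p = 0.000297). Bcl2l11 had an adjusted p of 0.0176 at 2 µM and was not called.

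Of the 19 tested targets in autophagy and proteolysis, none was called against 0 µM at either dose by edgeR or DESeq2. An unadjusted p under 0.05 was seen for 6 at 2 µM, all lower, as were 11.2% of all tested genes. At 10 µM it was seen for 4, all higher, as were 14.8% of all tested genes. The muscle atrophy ubiquitin ligase Fbxo32 had a log2 fold change of -0.47 at 2 µM (adjusted p = 0.0609) and 0.31 at 10 µM (adjusted p = 0.143), and 0.78 between the doses (adjusted p = 0.00249). Sqstm1, the autophagy receptor p62, had 0.65 between the doses (adjusted p = 0.0011).

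Of the 16 tested targets in metabolism and stress resistance, 8 were lower and 1 higher at 2 µM with an unadjusted p under 0.05 in edgeR's test. Of all tested genes 11.2% were lower and 10.1% higher at that limit. The DEG rule called 2 of the 16 lower, as it did 0.378% of all tested genes, and DESeq2 also called 2. Txnip, the thioredoxin-binding protein that restrains glucose uptake, was at 133, 110 and 122 CPM at 0 µM, 57.6, 51.2 and 58.9 CPM at 2 µM and 133 and 139 CPM at 10 µM. Against untreated, the log2 change was -1.12 with 2 µM (SE 0.0877, adjusted p = 0.000217) and 1.28 between the doses (adjusted p = 8.13e-06), so that it dipped at 2 µM as Klhl24, Pik3ip1 and Calcoco1 did. Sesn3, a sestrin that restrains mTORC1 and is a FoxO target, was at 30.4, 36.7 and 43.7 CPM at 0 µM, 19.4, 21.9 and 23.3 CPM at 2 µM and 29.3 and 25.9 CPM at 10 µM (log2 fold change -0.79 at 2 µM, adjusted p = 0.0093). Its stress-induced paralog Sesn2 rose at 10 µM, from 9.84, 12.6 and 10.7 CPM at 0 µM to 33.3 and 31.1 CPM at 10 µM (log2 fold change 1.53, adjusted p = 1.79e-05, and 1.39 between the doses, adjusted p = 2.44e-05), while Sesn1 had -0.23 at 2 µM and was not called. The antioxidant genes Sod2 and Cat had 0.17 and -0.20 at 2 µM and were not called. Pdk4, which turns cells away from glucose oxidation, and Sepp1, a secreted selenoprotein, were higher at 10 µM than at 2 µM by 0.83 (adjusted p = 0.00428) and 0.95 (adjusted p = 0.000188) on the log2 scale.

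**Figure D4:**
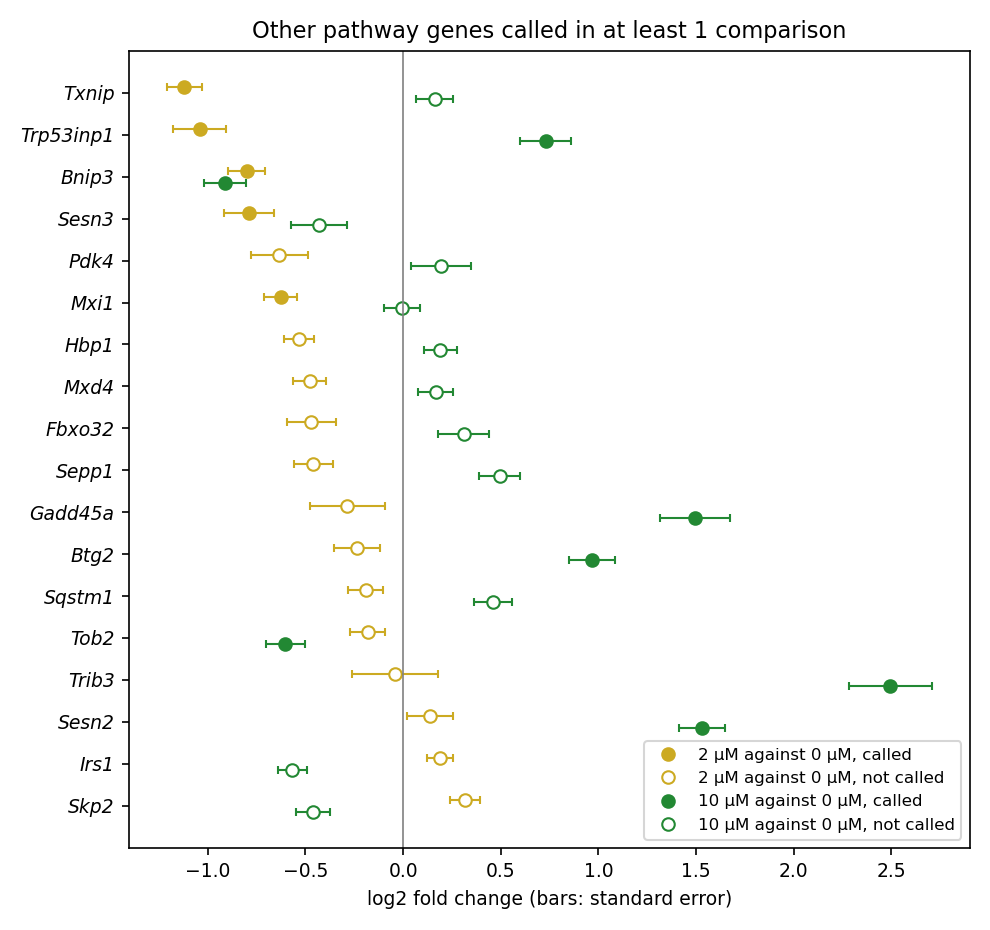
Log2 fold change at 2 µM (yellow) and 10 µM (green) against 0 µM for the 18 further pathway genes called in at least 1 of the 3 comparisons; bars are standard errors and filled points were called in the comparison plotted. Txnip and Trp53inp1 stand farthest left at 2 µM and Trib3 farthest right at 10 µM, at 2.495; Bnip3 is filled at both doses on the left.

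Several of these calls rested on single libraries or on the setting, and the adjusted p given for each is the highest over all alternatives. At 2 µM the call of Txnip held under all 16 alternatives that gave it a p-value, each library left out included, with adjusted p of at most 0.00456. That of Bnip3 was lost without the third 0 µM library or any 2 µM library (adjusted p up to 0.0154), that of Trp53inp1 without the third 0 µM or the first or the second 2 µM library (up to 0.0239), that of Mxi1 without any 1 of the 6 libraries compared (up to 0.0316), and that of Sesn3 without any library but the first 0 µM one (up to 0.0673). Sesn3 was also not called with TMM over nuclear genes only, with total counts, with a stricter filter or with the 2 groups alone, and Mxi1 was not with total counts. At 10 µM the calls of Trib3, Sesn2, Gadd45a, Btg2 and Bnip3 held under all 16, with adjusted p of at most 0.00737. That of Trp53inp1 was lost without the second or the third 0 µM library or either 10 µM library, or with the 2 groups alone (up to 0.0514), and that of Tob2 without the second or the third 0 µM library or the second 10 µM library, with total counts or with the 2 groups alone (up to 0.0377). Between the doses, calls were lost for Hbp1 and Sqstm1 without the second 10 µM library, for Fbxo32 without either 10 µM library, for Mxi1 without the third 2 µM or the second 10 µM library, with DESeq2 or without the filter on low counts, and for Pdk4 without the first or the second 2 µM or the second 10 µM library.

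Proliferation markers were read beside these lists. Of 22 tested, none was called at 2 µM by edgeR or DESeq2, and the median log2 fold change was 0.13. An unadjusted p under 0.05 was seen for 5, all higher, as were 10.1% of all tested genes. For 8 of the 22 every 2 µM library lay above every 0 µM library, as it did for 12.7% of all tested genes. Mki67, a marker of cycling cells, stood at 1162 ± 61.9 CPM in untreated MEFs, 1154 ± 41.7 CPM with 2 µM and 817 ± 115 CPM with 10 µM (mean ± SD, n = 3, 3 and 2). At 10 µM the median was -0.27, with 20 of the 22 below 0. An unadjusted p under 0.05 was seen for 12, all lower, as were 14.6% of all tested genes. For 12 both 10 µM libraries lay below all 0 µM libraries, as they did for 20.0% of all tested genes. DESeq2 called 2 of the 22 lower and edgeR called 1, as edgeR did 1.14% of all tested genes. The edgeR call was Ccnd1, the cyclin of G1, which fell by 0.64 on the log2 scale (adjusted p = 0.000237). That call was lost with total counts, where the change was under 1.5-fold. Ccna2, the cyclin of S phase and G2, had 0.17 at 2 µM and -0.32 at 10 µM and was not called. Directly between the doses Ccnd1, Ccne1 and Mcm5 were lower at 10 µM, by 0.74, 0.89 and 0.66 on the log2 scale (adjusted p = 5.78e-05, 9.81e-05 and 0.00108), the last not without the first 10 µM library or with total counts. Of all tested genes 1.59% were called lower in that comparison. The part that the state of growth plays in the levels of the 9 genes was not tested.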

How the data were processed

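RNA-Seq libraries of total RNA were trimmed with Trim Galore and cutadapt and aligned to mm10 with STAR 2.5.2a, and the authors deposited raw featureCounts counts of uniquely mapped fragments per gene, per the labels and the study's methods. The kit keeps strand, but the annotation and strand setting of the counting are not given in the sources used here, so reads of overlapping antisense genes may not be told apart.

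Counts of 8 libraries were fitted together, with dose as a factor, in edgeR 4.0.16 (R 4.3.3; TMM, filterByExpr, quasi-likelihood test), and p-values were adjusted by Benjamini-Hochberg over all 14296 tested genes. DEGs had an adjusted p under 0.01 and a change of more than 1.5-fold, as in the study, whose tool, DESeq2 (version 1.42.0 here), was an alternative. Standard errors were taken from the fold change and the F statistic of the fit. Profiles were compared by Pearson r of log2 CPM (prior count 2). The script was tested on simulated data.

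The genes named are the 9, pathway and proliferation genes called in any comparison, a fixed set of pathway components (some not reported here), and the genes nearest in profile. The 9 genes and all lists were chosen with earlier results of these data known. Alternatives were other scalings and filters, DESeq2, the 2 groups alone, a replicate block, no fold limit, and each library left out. Gene coordinates come from GENCODE on GRCm38, promoters from RefSeq on GRCm38.p6.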

Additional observations from a re-analysis of the deposited data

How the results depend on the processing

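No alternative turned the direction of a call. The rule called 71 genes at 2 µM, 442 at 10 µM, and 788 in the direct comparison of both doses. Without a fold limit these were 107, 747 and 1539, DESeq2 called 109 at 2 µM, and scaling to total counts alone called 904 at 10 µM. The count of the 9 genes called lower at 10 µM, 0 as reported, was 1 (Foxo3) with RLE size factors, without the filter on low counts and with DESeq2, and 2 without a fold limit. Of the 115 further pathway genes, total counts gave 3 lower at 2 µM (5 as reported), and 1 lower and 8 higher at 10 µM (2 and 5 as reported). The 2 groups alone gave 1 lower at 10 µM and no fold limit gave 7. Leaving out 1 library at a time gave 6 to 144 called genes at 2 µM, 235 to 633 at 10 µM and 444 to 884 for 10 µM against 2 µM, 1 to 6 of the 9 genes lower at 2 µM, 0 to 1 lower at 10 µM and 3 to 3 higher at 10 µM than at 2 µM, and 1 to 7 lower and 0 to 0 higher pathway genes at 2 µM, 1 to 5 lower and 4 to 5 higher at 10 µM. Over all genes, the highest counts came without the first 0 µM library, and the lowest without the second 2 µM library at 2 µM and without the second 10 µM library otherwise. Where 1 library of 10 µM was left it was assumed to vary like the other groups. The causes were not tested.

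Deviations of same-numbered libraries had correlations of 0.199, 0.0845 and 0.161 between 0 and 2 µM, where differently numbered ones ran from -0.154 to 0.0584. With 10 µM the same-numbered ones ran from -0.145 to -0.0212. The 2 libraries at 10 µM deviate as mirror images of each other, so these values say little about pairing. Whether the numbers pair the libraries is not settled, and the main fit did not pair them. With a replicate block 54, 322 and 735 genes were called, the 9 genes kept their counts of 5, 0 and 3, and 4 further pathway genes were lower at 2 µM and 1 at 10 µM, Mxi1 and Tob2 being the calls lost.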
